A study of Homo sapiens with 4 samples.

Results

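NEAT1 and MALAT1 are long noncoding RNAs that stay in the nucleus and are made from neighbouring genes, and SFPQ, NONO, PSPC1, RBM14 and HNRNPK encode RNA-binding proteins of the paraspeckle. These 7 genes were taken by name from the 58735 genes of an RNA-seq table of the Myla line, which derives from mycosis fungoides, a T cell lymphoma that arises in skin. One group had been transduced with lentivirus carrying a short hairpin RNA against the forkhead factor FOXM1, which drives cell cycle genes (shFOXM1, 2 libraries). The other had been transduced with lentivirus carrying a scrambled hairpin (shControl, 2 libraries). All 4 libraries came from the same line, whose genotype is given as wild type, and RNA was taken 72 h after the medium change that ended the 24 h of transduction. The labels leave unsaid whether a single hairpin sequence was used in both shFOXM1 libraries and whether each library had a culture of its own. The p-values therefore reflect no more than library spread, some of which may be technical. The set was selected on the FPKM values of NEAT1 and MALAT1, which were higher in shFOXM1 in these libraries, so their values below are a description and carry no test.

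Paraspeckles are bodies of the nucleus built on NEAT1. The NEAT1 gene makes a short RNA that ends in a poly(A) tail and a long RNA that starts at the same promoter and runs past that end, and the long RNA is the scaffold on which paraspeckles assemble. SFPQ, NONO and PSPC1 form a family of proteins that pair with each other and coat the long RNA, RBM14 joins these units into a body, and HNRNPK favours the long RNA by hindering use of the early poly(A) site. MALAT1 gathers in nuclear speckles, bodies rich in splicing factors that often lie beside paraspeckles.

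The 3′ ends of both RNAs are unusual, which bears on how RNA-seq reads them. Long NEAT1 and MALAT1 get no poly(A) tail. RNase P cuts each precursor before a small tRNA-like RNA, and the new end is closed by a triple helix in which U-rich stretches pair with an A-rich tail that the gene itself encodes. The last 110 bases before that cut are shown for both, from GENCODE 29 transcripts on GRCh38, as DNA and 5′ to 3′. Capitals mark 2 U-rich stretches in each and the 11 last bases, which are the same in both RNAs. The first is at chr11:65445431-65445540 and the second at chr11:65506007-65506116, both on the plus strand.
NEAT1 long 3′ end: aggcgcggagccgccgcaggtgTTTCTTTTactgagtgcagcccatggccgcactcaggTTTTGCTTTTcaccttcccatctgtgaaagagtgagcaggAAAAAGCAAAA
MALAT1 3′ end: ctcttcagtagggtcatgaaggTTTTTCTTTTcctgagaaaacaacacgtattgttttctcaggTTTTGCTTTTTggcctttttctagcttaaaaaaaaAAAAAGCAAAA
The longest stretch that both ends share is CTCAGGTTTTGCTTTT, of 16 bases, which runs into the second U-rich stretch.

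The tRNA-like RNAs that follow these cuts are annotated as genes of 58 and 57 bases, at chr11:65445541-65445598 after NEAT1 and at chr11:65506117-65506173 after MALAT1, where it is known as mascRNA. Capitals mark the bases that are the same in both when they are aligned, 40 of 59 aligned positions.
NEAT1 tRNA-like RNA: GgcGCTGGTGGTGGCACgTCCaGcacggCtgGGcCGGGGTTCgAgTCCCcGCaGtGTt
MALAT1 mascRNA: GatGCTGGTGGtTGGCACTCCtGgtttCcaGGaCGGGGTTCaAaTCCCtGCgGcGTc
The short NEAT1 RNA ends 19 kb earlier, in a sequence with an ordinary poly(A) signal, in capitals here, 5 bases before the annotated end at chr11:65426454-65426513.
NEAT1 short 3′ end: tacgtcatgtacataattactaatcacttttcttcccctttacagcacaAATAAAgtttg
The mascRNA gene was listed at 0 in every library, as were all 7 annotated genes that overlap NEAT1 or MALAT1. How reads in overlapping genes were counted is not given, so these values do not show that the RNAs were absent. The libraries were made with a kit for messenger RNA, and how far it took up RNAs without a tail was not tested.

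Both groups were read to a like depth, with 14147084 to 15017728 whole reads recovered from the deposited FPKM values (fragments scaled by the length of the gene and the size of the library). The library sizes implied by the FPKM differed from these by -1.44 and 3.8% in shFOXM1 1 and 2. In shControl 1 and 2 they differed by 0.319 and -0.173%. How far this enters small differences between libraries was not tested. FOXM1 itself (chromosome 12, minus strand, 2857681 to 2877155) was at 9.27 and 5.59 FPKM in shFOXM1 and at 26.5 and 27.6 FPKM in shControl. Of 12 T cell markers 7 had at least 1 FPKM in 2 libraries, with summed levels of 499 to 534 FPKM in shFOXM1 and 478 to 480 in shControl, while CD4 was at 0 and CD3E, CD5, CD7 and LCK were near 0. Few markers of other cells reached that level: CD79A for B cells, CSF1R for monocytes, COL1A1 for fibroblasts and endothelium, and KRT10 and CDH1 for keratinocytes. Summed levels in shFOXM1 and in shControl were 0.543 to 8.18 against 1.97 to 2.14 FPKM for B cells and 8.53 to 13.5 against 9.11 to 12.9 for monocytes. They were 3.26 to 4.5 against 2.56 to 2.76 for fibroblasts and endothelium and 11.4 to 19.4 against 13.9 to 14.3 for keratinocytes. Their part in the results was not tested. The shFOXM1 libraries lay farther apart than the shControl libraries, with an SD over genes of the log2 difference of 0.424 and 0.263. Mitochondrial genes held 5.72 and 4.98% of reads in shFOXM1 and 5.93 and 5.88% in shControl.

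NEAT1 was at 41.9 and 35.2 FPKM in shFOXM1 1 and 2, against 21.8 and 19 FPKM in shControl 1 and 2. Both shFOXM1 libraries lay above both shControl libraries, and the groups did not overlap. The means were 38.6 ± 4.74 FPKM in shFOXM1 and 20.4 ± 1.98 FPKM in shControl (SD, n = 2 each), a ratio of 1.89, and the log2 fold change on the log2(FPKM + 1) scale was 0.89 (SE 0.14). The gene (ENSG00000245532) covers 65422774 to 65445540 on the plus strand of chromosome 11. These values rested on 14130 and 12223 reads in shFOXM1 and 7036 and 6375 in shControl, so that counting error was 0.841 to 1.25% of each. Against the shControl mean, shFOXM1 1 was 1.01 higher and shFOXM1 2 was 0.76 higher in log2, and the shControl libraries differed by -0.19 (replicate 2 minus replicate 1). In cells measured in bulk, a change in the number of cells that make an RNA and a change in its amount per cell cannot be told apart.

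MALAT1 (ENSG00000251562, chromosome 11, plus strand, 65497688 to 65506516) was at 22.9 and 32.4 FPKM in shFOXM1 1 and 2, against 14.5 and 16.8 FPKM in shControl 1 and 2. Its groups did not overlap either, but here shFOXM1 2 was the higher library, while for NEAT1 it was shFOXM1 1. The means were 27.7 ± 6.69 FPKM in shFOXM1 and 15.7 ± 1.61 FPKM in shControl (SD, n = 2 each), with a ratio of 1.77 and a log2 fold change of 0.77 (SE 0.20). MALAT1 was 0.53 above the shControl mean in shFOXM1 1 and 1.01 above it in shFOXM1 2, and shControl 2 was 0.20 above shControl 1. Reads numbered 2998 and 4360 in shFOXM1 and 1821 and 2190 in shControl, with a counting error of up to 2.34%.

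**Figure D1:**
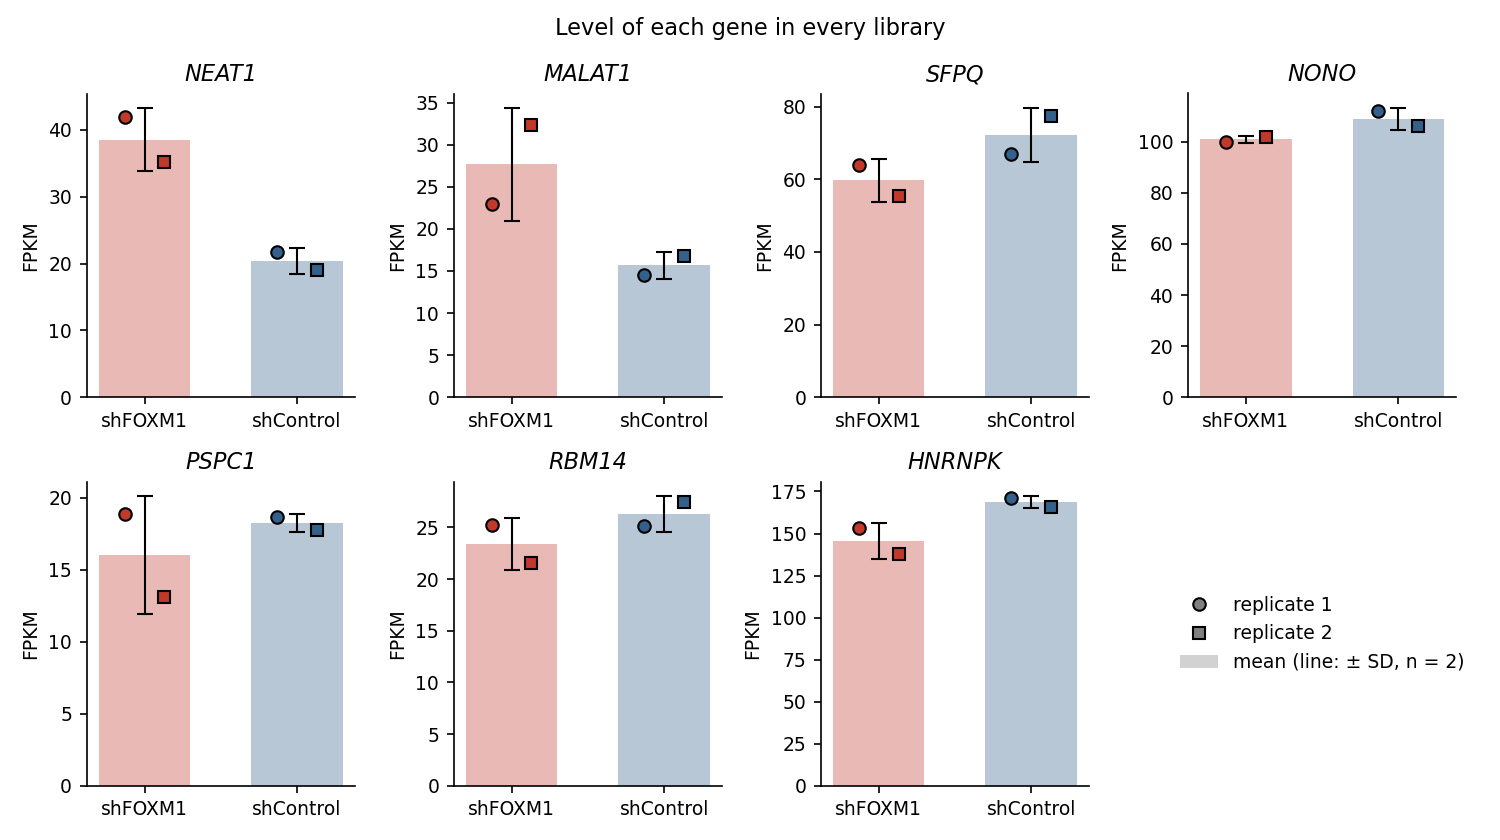
Level in FPKM of the 7 genes, each on its own axis from 0, with bars for the group mean, lines for the SD (n = 2) and points for the libraries. NEAT1 and MALAT1 have both shFOXM1 points above both shControl points, SFPQ, NONO and HNRNPK have them below, and PSPC1 and RBM14 overlap.

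The balance of the RNAs with each other and with the proteins' messages was read as ratios of FPKM within a library. The ratio of NEAT1 to MALAT1 was 1.83 and 1.09 in shFOXM1 1 and 2 and 1.5 and 1.13 in shControl 1 and 2, and these ranges overlap. The ratio of NEAT1 to SFPQ was 0.656 and 0.635 in shFOXM1, against 0.325 and 0.245 in shControl, without overlap. NEAT1 was chosen for its rise, so this separation follows largely from that choice and is no test of a balance. Within the protein family, the ratio of NONO to SFPQ was 1.56 and 1.83 in shFOXM1 and 1.67 and 1.36 in shControl, and that of SFPQ to PSPC1 was 3.39 and 4.24 in shFOXM1 and 3.58 and 4.35 in shControl. Both of these overlap between groups. HNRNPK to RBM14 stood at 6.05 and 6.4 in shFOXM1 and at 6.8 and 6.04 in shControl, also with overlap.

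NEAT1 took 0.0941 and 0.0833% of all reads in shFOXM1, against 0.0497 and 0.0431% in shControl, and MALAT1 took 0.02 and 0.0297% against 0.0129 and 0.0148%. Of the reads in genes annotated as lincRNA (long RNAs between coding genes), NEAT1 held 19.5 and 15.5% in shFOXM1 and 11.8 and 10.5% in shControl. MALAT1 held 4.14 and 5.54% in shFOXM1 and 3.07 and 3.61% in shControl. Genes of that class together held 0.482 and 0.536% of reads in shFOXM1, against 0.42 and 0.41% in shControl.

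The NEAT1 values cannot be divided between its isoforms. NEAT1 was scaled by 22767 bases, about the length of the annotated long RNA (22743 bases). The annotated short RNA whose end is shown above has 2994 bases. Another annotated short form has 3441 bases and lies at the start of the same region. If every read came from that short form, its level would be 6.62 times the listed value, or 277 and 233 FPKM in shFOXM1 and 144 and 126 FPKM in shControl. The ratio between groups would be the same, but the place of NEAT1 in an order of levels would not.

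The 5 protein genes were lower on average in shFOXM1 by small amounts, and none passed the test over all genes. The test was limma on log2(FPKM + 1), with Benjamini-Hochberg adjustment over the 12033 genes that had at least 1 FPKM in 2 libraries, and all 7 genes passed that filter. At an adjusted p under 0.05 it called 0% of the genes tested, while at an unadjusted p under 0.05 it found 8.82% higher (1061 genes) and 8.99% lower (1082 genes). Voom on the whole reads also called 0 genes. Without overlap between the groups, 27.3% of the genes tested were higher and 25.9% lower in shFOXM1. By that rule 2 of the 7 genes were higher, the noncoding pair chosen for it, 3 of the 5 protein genes were lower and 2 overlapped.

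SFPQ (ENSG00000116560, chromosome 1, minus strand, 35176378 to 35193148), a protein without which paraspeckles and long NEAT1 are lost, was at 63.9 and 55.5 FPKM in shFOXM1 and at 67 and 77.5 FPKM in shControl. Its groups did not overlap, though shFOXM1 1 was close to shControl 1. The log2 fold change was -0.27 (SE 0.13, limma adjusted p = 0.363), from means of 59.7 ± 5.97 and 72.2 ± 7.44 FPKM (shFOXM1 and shControl, SD, n = 2 each). NONO (ENSG00000147140, chromosome X, plus strand, 71283192 to 71301168), the partner of SFPQ, was at 99.9 and 102 FPKM in shFOXM1 and at 112 and 106 FPKM in shControl. The 4 libraries lay close together, with a log2 fold change of -0.11 (SE 0.10, limma adjusted p = 0.599).

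PSPC1 (ENSG00000121390, chromosome 13, minus strand, 19674752 to 19783019), a protein named after the paraspeckle, was at 18.9 and 13.1 FPKM in shFOXM1 and at 18.7 and 17.8 FPKM in shControl. The shFOXM1 libraries lay on either side of shControl, and the log2 fold change of -0.20 (SE 0.19, limma adjusted p = 0.612) rested on shFOXM1 2. With shFOXM1 1 left out, PSPC1 stood at -0.45 (limma adjusted p = 0.028), and with shFOXM1 2 left out it turned to 0.05 (limma adjusted p = 0.74). In these fits limma called 14.5% and 2.95% of the genes tested lower, and their spread came from the shControl libraries alone. RBM14 (ENSG00000239306, chromosome 11, plus strand, 66616582 to 66627347) was at 25.2 and 21.6 FPKM in shFOXM1 and at 25.1 and 27.5 FPKM in shControl. Its groups overlapped, with a log2 fold change of -0.16 (SE 0.13, limma adjusted p = 0.543).

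HNRNPK (ENSG00000165119, chromosome 9, minus strand, 83968083 to 83980616) had the highest level of the 7, at 153 and 138 FPKM in shFOXM1 and at 171 and 166 FPKM in shControl. The groups did not overlap, and the log2 fold change was -0.21 (SE 0.10, limma adjusted p = 0.358). With shFOXM1 1 left out, HNRNPK stood at -0.28 (limma adjusted p = 0.0325), in the same fit that called 14.5% of genes lower. Some of these genes share sequence or place with others, and how the counting divided such reads is not given. PSPC1-AS2, on the strand opposite PSPC1, was at 2.16 and 2.79 FPKM in shFOXM1 and 3.19 and 2.34 in shControl. AL354733.3, opposite HNRNPK, was at 0.866 and 1.35 FPKM in shFOXM1 and 1.45 and 1.04 in shControl. The pseudogenes HNRNPKP4, NONOP2 and PSPC1P1 and the readthrough gene RBM14-RBM4 stayed at or under 3.05 FPKM in every library.

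The order of the levels differed between the groups in the place of the noncoding RNAs. In shFOXM1 it ran HNRNPK, NONO, SFPQ, NEAT1, MALAT1, RBM14 and PSPC1 by mean FPKM, and MALAT1 and RBM14 were the neighbours whose libraries overlapped. In shControl it ran HNRNPK, NONO, SFPQ, RBM14, NEAT1, PSPC1 and MALAT1, and no neighbours overlapped. NEAT1 thus stood above RBM14 in shFOXM1 and below it in shControl, by values as listed. The rise for which NEAT1 and MALAT1 were chosen enters this order. If every NEAT1 read came from the short form of 3441 bases, NEAT1 would be at 144 and 126 FPKM in shControl. That is above the 25.1 and 27.5 FPKM of RBM14 there.

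Within shFOXM1, the members differed in which library was the higher. NEAT1 and all protein genes except NONO were lower in shFOXM1 2 than in shFOXM1 1, by -0.24 for NEAT1, -0.20 for SFPQ, -0.50 for PSPC1, -0.21 for RBM14 and -0.14 for HNRNPK in log2. MALAT1 was higher in shFOXM1 2 by 0.48 and NONO by 0.03. FOXM1 was also lower in shFOXM1 2, by -0.64. Over the 32 paraspeckle protein genes tested, 24 were lower in shFOXM1 2 than in shFOXM1 1, against 53.3% of all genes tested.

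**Figure D2:**
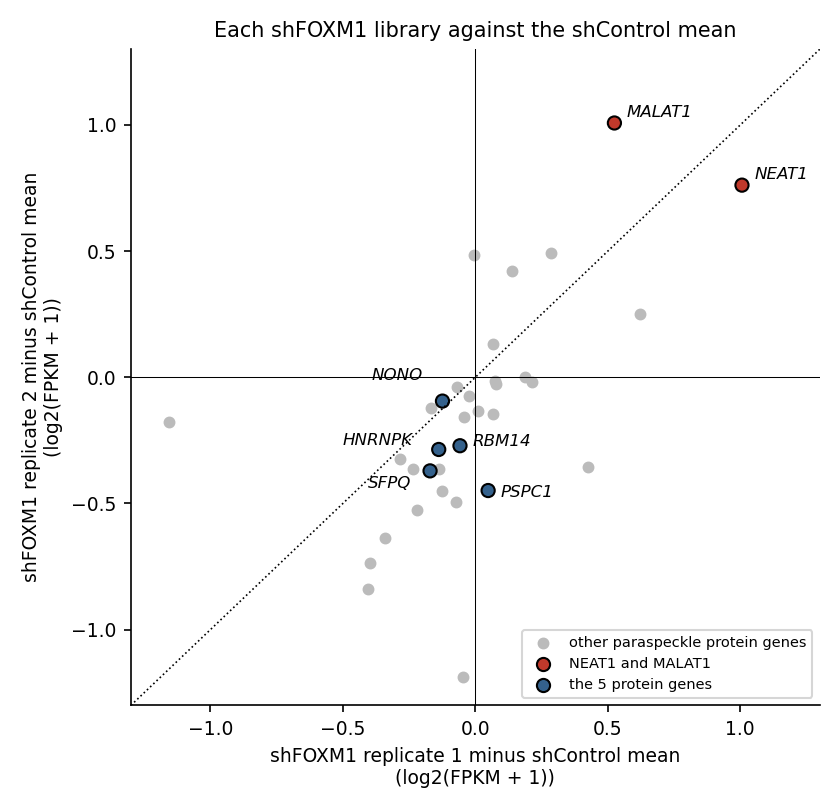
Difference from the shControl mean, in log2(FPKM + 1), in shFOXM1 replicate 1 (x axis) and replicate 2 (y axis), with the line of equal values. NEAT1 lies below the line at 1.01 and 0.76, MALAT1 above it at 0.53 and 1.01, and PSPC1 has 0.05 on the x axis and -0.45 on the y axis.

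Among all genes tested, 132 had a larger log2 fold change than NEAT1 and 230 a larger one than MALAT1. Of the 406 lincRNA genes tested, NEAT1 was in place 9 by mean level and in place 8 by log2 fold change, and MALAT1 in places 16 and 18. Over the whole class, 105 genes were higher (25.9%) and 87 lower (21.4%) without overlap, against 27.3% and 25.9% of all genes tested. The median log2 fold change of the class was 0.01. Of the 39 lincRNA genes with a mean of at least 10 FPKM, 17 were higher and 9 lower, with a median of 0.02, and the 37 other than NEAT1 and MALAT1 ran from -1.12 for SNHG25 to 0.91 for NORAD. The places by log2 fold change follow from how the pair was chosen.

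**Figure D3:**
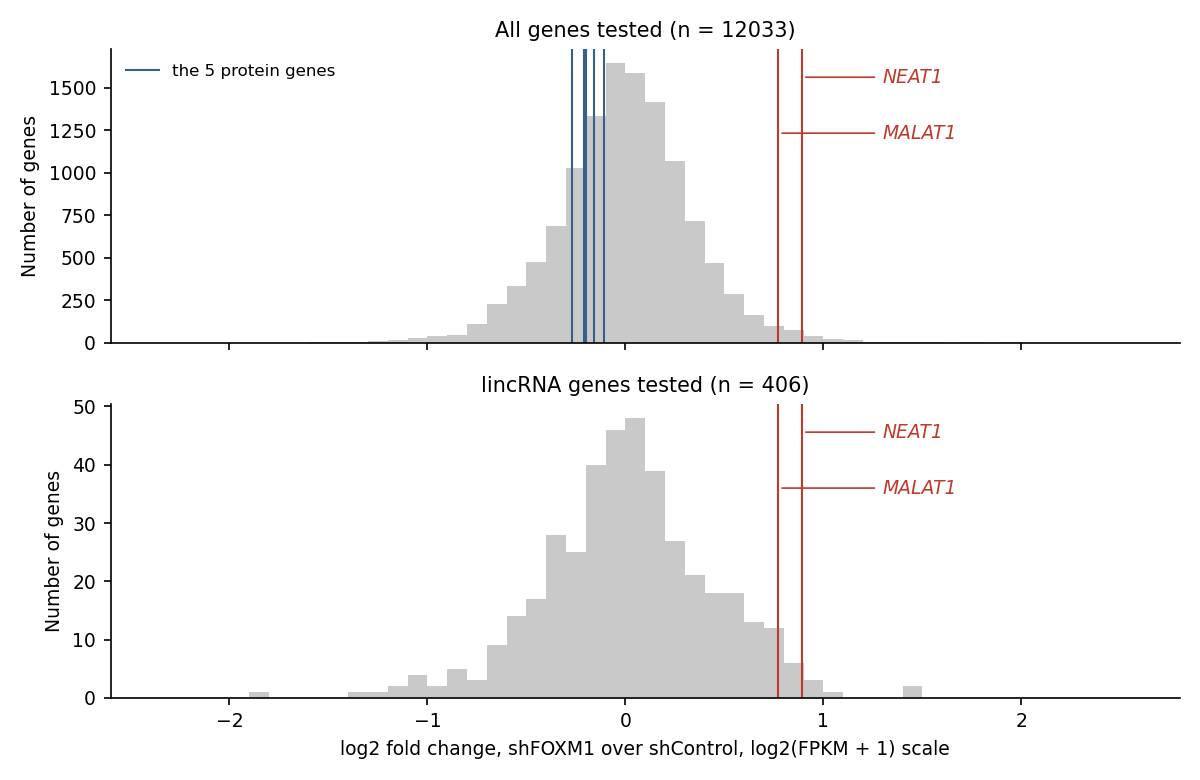
Number of genes by log2 fold change of shFOXM1 over shControl, for the 12033 genes tested (top) and the 406 lincRNA genes tested (bottom), in steps of 0.1. Lines mark NEAT1 at 0.89 and MALAT1 at 0.77 on the right, and the 5 protein genes between -0.27 and -0.11 in the top panel.

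The genes tested within 100 kb of NEAT1 or MALAT1 lay on both sides of no change. They lay nearer to it than this pair, but the pair was chosen for its rise, so the contrast carries no test. The end of NEAT1 and the start of MALAT1 are 52.1 kb apart, and 26 other genes lie within 100 kb of either, of which 9 were tested. Of these, 3 were higher and 1 lower without overlap (against 27.3% and 25.9% of all genes tested), with log2 fold changes from -0.29 to 0.29 and a median of 0.14. Closest to NEAT1 were FRMD8, 9.25 kb away, at 12 and 16.6 FPKM in shFOXM1 and 14.6 and 17.2 in shControl, and AP000769.1, a pseudogene 9.72 kb away, at 3.7 and 2.07 FPKM in shFOXM1 and 3.86 and 2.91 in shControl. The groups overlap for both. DPF2, a subunit of a chromatin remodelling complex, and FAM89B also overlapped, with log2 fold changes of 0.14 and 0.21. SLC25A45, a mitochondrial carrier, was the lower one at 4.86 and 5.12 FPKM in shFOXM1 and 6.11 and 6.5 in shControl (log2 fold change -0.29, SE 0.12). SSSCA1 (0.26), EHBP1L1 (0.29) and the kinase MAP3K11 (0.16) were the higher ones by log2 fold change, and limma called none of the 9.

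Within 200 kb, 15 genes were tested, with 4 higher and 2 lower (against 27.3% and 25.9% of all genes tested). Their median was 0.16, which was 0.02 without shControl 1. Without shFOXM1 1 or without shControl 2, 9 of the 15 were higher, against 42.3% and 35.2% of all genes tested. The lower ones numbered 4 without shFOXM1 1, without shFOXM1 2 and without shControl 1, against 44.8%, 38.7% and 33.5%. RELA, the NF-kB subunit, was at 22.4 and 23.6 FPKM in shFOXM1 and 18.2 and 19.3 in shControl. The largest value, 1.44, was that of MIR4489, a gene of 62 bases listed at 0 in shControl 1.

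**Figure D4:**
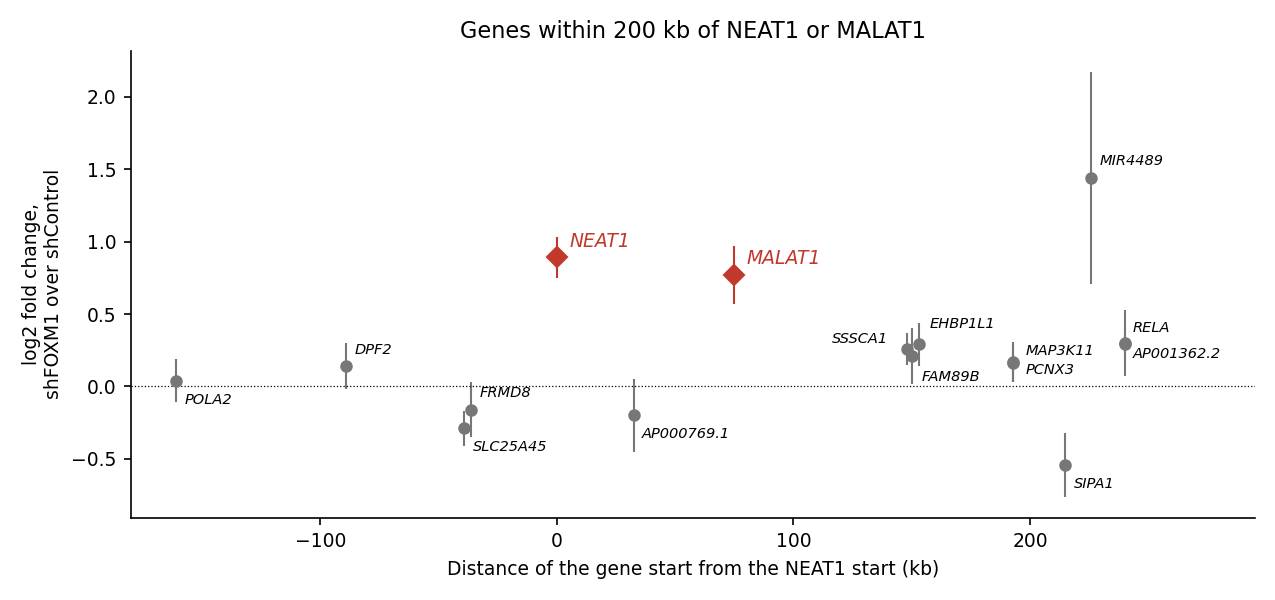
Log2 fold change of shFOXM1 over shControl with its SE for genes tested within 200 kb of NEAT1 or MALAT1 (1 of the 15 is not shown), by distance of the gene start from the NEAT1 start in kb. NEAT1 and MALAT1 are at 0.89 and 0.77, while FRMD8 and AP000769.1, the closest to NEAT1, are at -0.16 and -0.20.

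Promoter sequence was read for the members that have an entry in the RefSeq promoter table (GRCh38.p14, 250 bases before and 50 after a start), which were 5 of the 7 with 7 windows. NEAT1 and SFPQ have no entry. The letters TGTTTAC, the core that forkhead factors bind, occurred on either strand in 0 of the 7 windows and in 3.42% of all 35116 promoters in the table. TTTGAA, an element of cell cycle promoters, occurred once, in PSPC1 (15.2% of all promoters). CCAAT occurred 3 times each in RBM14 and NONO and 2 times in 1 of the 2 HNRNPK windows (34.6% of all promoters). The first MALAT1 window, at chr11:65497488-65497787 on the plus strand, held 5 matches to GGGCGG, the GC box, in capitals here on either strand (45% of all promoters), and 73.7% of its bases were G or C.
MALAT1 promoter: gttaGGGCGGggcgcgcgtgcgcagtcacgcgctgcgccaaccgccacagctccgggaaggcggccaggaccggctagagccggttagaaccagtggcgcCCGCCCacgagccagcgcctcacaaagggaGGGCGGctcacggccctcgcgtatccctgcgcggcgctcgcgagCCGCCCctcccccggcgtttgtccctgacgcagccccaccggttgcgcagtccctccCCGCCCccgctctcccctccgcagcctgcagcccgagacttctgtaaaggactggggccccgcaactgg
The second MALAT1 window, at a later start, held 1 match to TATAAA, the TATA box (11.5% of all promoters). GGGCGG also occurred 3 times in the other HNRNPK window. These matches describe letters and not binding.

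The genes of proteins on which paraspeckles depend were mostly lower in shFOXM1 at the RNA level, by amounts that did not pass the test. Protein was not measured. Of the 8 genes in the list of proteins needed for paraspeckle formation, 4 of them SFPQ, NONO, RBM14 and HNRNPK, 6 were lower and 0 higher without overlap (against 25.9% and 27.3% of all genes tested), and the median log2 fold change was -0.24, against -0.00 over all genes tested. DAZAP1, an RNA-binding protein, was at 31.7 and 28.9 FPKM in shFOXM1 and 37.2 and 37.8 in shControl, with a log2 fold change of -0.30 (SE 0.11, limma adjusted p = 0.261), and HNRNPH3 was at 23.6 and 17.4 FPKM in shFOXM1 and 24.8 and 25 in shControl. SMARCA4, the ATPase of the SWI/SNF chromatin remodeller, overlapped. By library, the list's median against the shControl mean was -0.13 in shFOXM1 1 and -0.32 in shFOXM1 2. Without shFOXM1 2 the median was -0.13 and 1 gene was higher (against 44.3% of all genes tested).

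The genes of the other paraspeckle proteins were more mixed. Of 27 genes listed, 24 were tested. Without overlap 10 were lower and 4 higher (against 25.9% and 27.3% of all genes tested), with a median log2 fold change of -0.06. HNRNPA1, a splicing regulator, was at 267 and 211 FPKM in shFOXM1 and at 364 and 341 FPKM in shControl, with a log2 fold change of -0.56 (SE 0.14, limma adjusted p = 0.195). RBMX, a splicing factor encoded on the X chromosome, was at 42.5 and 34.5 FPKM in shFOXM1 and 54.1 and 54.2 in shControl. In these genes, named by a rule that asks for groups without overlap, both shFOXM1 libraries were clearly below shControl. NUDT21 and HNRNPUL1 differed in 1 shFOXM1 library. NUDT21, a subunit of the cleavage factor that helps choose poly(A) sites, was at 8.58 and 17.9 FPKM in shFOXM1 and 20.5 and 20.2 in shControl, so it was lowest in shFOXM1 1. HNRNPUL1 was at 117 and 52.6 FPKM in shFOXM1 and 123 and 119 in shControl, so it was lowest in shFOXM1 2. The higher genes were FAM98A, AKAP8L, CIRBP and AHDC1, with log2 fold changes of 0.44, 0.39, 0.28 and 0.10. The lower count was 16 without shFOXM1 1 (against 44.8% of all genes tested), with a median of -0.14, and the higher count was 10 without shFOXM1 2 (against 44.3%). MATR3 is split over 2 overlapping rows of the table, both under 0.3 FPKM, and was not tested.

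The genes that cut and tail the short NEAT1 RNA and those that make the tailless ends come next, and limma called none of them. Among 18 cleavage and polyadenylation genes, 8 were higher and 4 lower (against 27.3% and 25.9% of all genes tested), with a median of 0.07, which was 0.05 without shFOXM1 1 and 0.09 without shControl 2. CLP1 was at 11.9 and 11.3 FPKM in shFOXM1 and 8.7 and 8.79 in shControl, CSTF2T at 22.5 and 22.8 FPKM in shFOXM1 and 18.4 and 18.3 in shControl, and FIP1L1 at 7.37 and 6.51 FPKM in shFOXM1 and 6.34 and 5.12 in shControl. All 3 belong to the complexes that process the ends of messenger RNA. The 4 lower genes were NUDT21, CPSF4, CPSF7 and CSTF1, with log2 fold changes of -0.66, -0.18, -0.14 and -0.13. NUDT21, as given above, was lowest in shFOXM1 1. CPSF6, which acts with NUDT21, was at 30.4 and 17.3 FPKM in shFOXM1 and 22.2 and 22.6 in shControl, one library above and the other below.

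For the enzymes of the tailless ends (RNase P, which cuts before the tRNA-like RNA, RNase Z, which cuts after it, and METTL16, which binds the MALAT1 triple helix), 11 of 14 genes were tested, and 2 were higher and 2 lower, a smaller share than the 27.3% and 25.9% of all genes tested, with a median of -0.02. POP7, an RNase P protein, was at 38.3 and 29.9 FPKM in shFOXM1 and at 48.2 and 55.4 FPKM in shControl (log2 fold change -0.60, SE 0.16, limma adjusted p = 0.203). METTL16 was at 10.2 and 9.17 FPKM in shFOXM1 and 10.6 and 10.9 in shControl. The RNase P subunits RPP25L and RPP30 were the higher ones, with log2 fold changes of 0.23 and 0.14. ELAC2, the RNase Z, overlapped at 41.3 and 30 FPKM in shFOXM1 and 37.9 and 38.3 in shControl. Without shFOXM1 1 there were 4 higher and 6 lower (against 42.3% and 44.8% of all genes tested), with a median of -0.08. Without shFOXM1 2 there were 6 higher and 4 lower (against 44.3% and 38.7%), with a median of 0.09.

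Nuclear speckles, where MALAT1 gathers, were read through the RNA of 26 genes for their proteins. Without overlap 13 were lower and 3 higher (against 25.9% and 27.3% of all genes tested), and their median log2 fold change was -0.10. Limma called none of them. SRSF7, an SR protein of splicing, was at 54.5 and 40.4 FPKM in shFOXM1 and at 77 and 72.8 FPKM in shControl, with a log2 fold change of -0.66 (SE 0.17, limma adjusted p = 0.195). SRSF2 was at 62.3 and 52.7 FPKM in shFOXM1 and 79.7 and 76.5 in shControl, and SRSF1, which binds MALAT1, at 36.3 and 31.9 FPKM in shFOXM1 and 43.8 and 49.1 in shControl. TRA2B, another splicing regulator, was at 21.3 and 16.6 FPKM in shFOXM1 and 25.7 and 26.5 in shControl. These 4 genes were named for groups that do not overlap and for the largest changes in the list. Their separation follows from that choice. In each, the lowest level was in shFOXM1 2. The higher genes were SNRNP70, ACIN1 and SF3B1, with log2 fold changes of 0.40, 0.21 and 0.07. SNRNP70 was at 73.8 and 112 FPKM in shFOXM1 and 67.1 and 70.3 in shControl. SON and SRRM2, large proteins of the speckle core, had log2 fold changes of 0.12 and -0.10, and SON overlapped. The median was -0.08 without shFOXM1 1, -0.07 without shFOXM1 2 and -0.11 without shControl 1. The higher count was 8 without shFOXM1 1, 6 without shControl 1 and 5 without shControl 2, against 42.3%, 34.2% and 35.2% of all genes tested.

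Genes for subunits of SWI/SNF, a chromatin remodeller linked to paraspeckle assembly, and of the nuclear RNA exosome, which degrades nuclear RNA, showed no common direction. Of 11 SWI/SNF genes tested, 2 were higher (SMARCC1 at 0.30 and SMARCC2 at 0.13 in log2 fold change) and 1 lower (ACTL6A at -0.35), against 27.3% and 25.9% of all genes tested, with a median of 0.04. Without shFOXM1 2, 8 were higher, and without shControl 1, 5 were higher (against 44.3% and 34.2% of all genes tested). The lower ones numbered 5 without shFOXM1 1 (against 44.8%) and 2 without either shControl library (against 33.5% and 33.1%). Of 17 exosome and adaptor genes, 5 were higher and 4 lower (against 27.3% and 25.9%), with a median of -0.04. EXOSC2 was at -0.34 and MPHOSPH6 at -0.29, while ZFC3H1, of the adaptor for RNAs with a poly(A) tail, was at 0.32 and EXOSC6 at 0.22 in log2 fold change. Without shFOXM1 2, 10 were higher (against 44.3% of all genes tested) and the median was 0.03, and without shFOXM1 1, 10 were lower (against 44.8%).

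**Figure D5:**
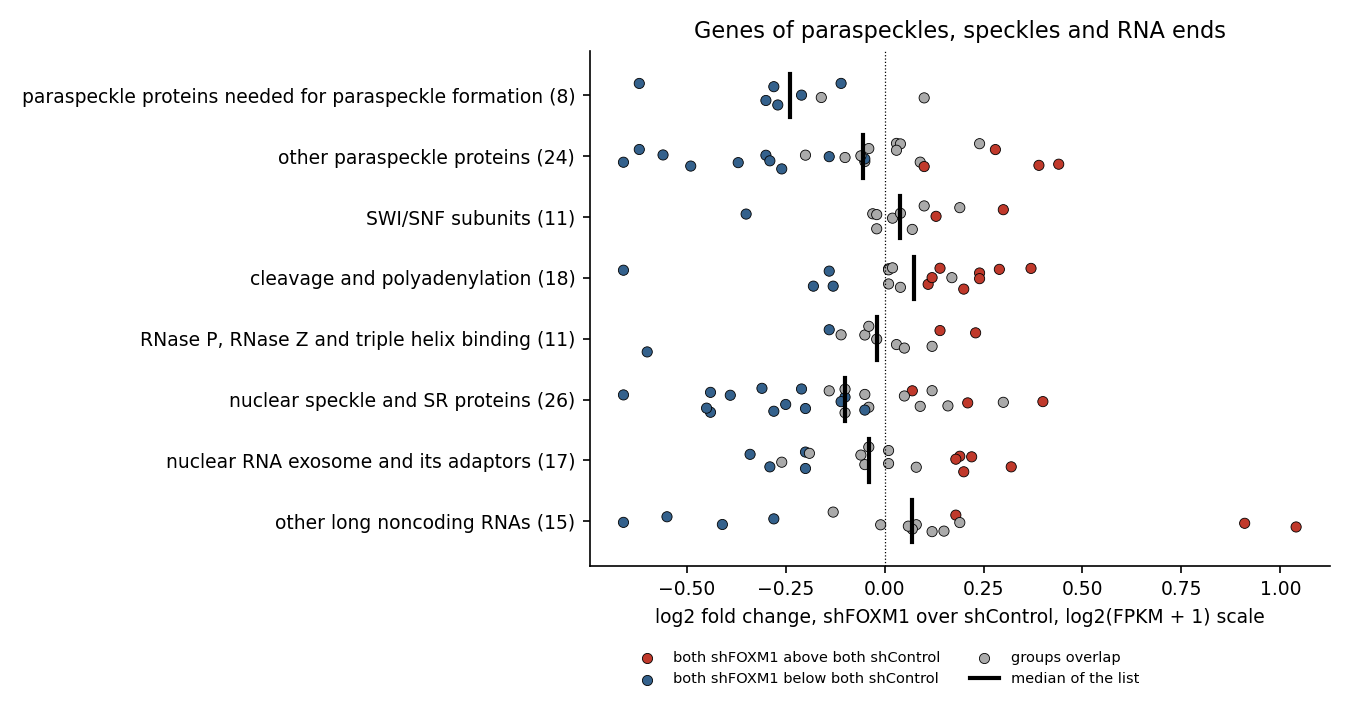
Log2 fold change of shFOXM1 over shControl for the genes tested in each list (number in brackets), with colour for whether the libraries of the groups overlap and a black line for the list's median. The medians run from -0.24 for proteins needed for paraspeckle formation to 0.07 for cleavage and polyadenylation and for other long noncoding RNAs.

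Of 21 other well known long noncoding RNAs listed, 15 were tested, and for 8 of these the groups overlapped. There were 3 higher and 4 lower, close to or under the 27.3% and 25.9% of all genes tested, with a median of 0.07. NORAD, a cytoplasmic RNA that binds Pumilio proteins, was at 47.3 and 73.2 FPKM in shFOXM1 and at 30.5 and 31.3 FPKM in shControl, with a log2 fold change of 0.91 (SE 0.22, limma adjusted p = 0.191), highest in shFOXM1 2 as MALAT1 was. MIR22HG was at 3.28 and 3.36 FPKM in shFOXM1 and at 0.944 and 1.27 FPKM in shControl, with a log2 fold change of 1.04 (SE 0.16, limma adjusted p = 0.173). TUG1 was the third, at 0.18. The lower ones were SNHG1 at 20.5 and 13.7 FPKM in shFOXM1 and 28 and 26.5 in shControl, DANCR at 21.9 and 20.9 FPKM in shFOXM1 and 31.8 and 31.9 in shControl, and GAS5 and ZFAS1 at log2 fold changes of -0.41 and -0.28. Without shFOXM1 1 there were 7 higher and 7 lower (against 42.3% and 44.8% of all genes tested), with a median of -0.10. Without shFOXM1 2 there were also 7 and 7 (against 44.3% and 38.7%), with a median of -0.03, and without shControl 1 there were 5 higher (against 34.2%).

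The genes most like NEAT1 and MALAT1 across the libraries were different ones. Likeness was the Euclidean distance over the 4 libraries between log2(FPKM + 1) profiles, each less its own shControl mean, among 7234 genes with a mean of at least 5 FPKM. For NEAT1 the nearest was RNU1-72P, at a distance of 0.09, which rested on only 17 and 16 reads in shFOXM1 and 8 and 7 in shControl. AL390719.1 (0.18), LMNA (0.19), the lincRNA AL645608.8 (0.20) and KLF6 (0.21) followed by distance. LMNA, the gene of nuclear lamins A and C, was at 187 and 151 FPKM in shFOXM1 and at 90.6 and 94.6 FPKM in shControl. KLF6, a zinc finger transcription factor, was at 48.9 and 41.1 FPKM in shFOXM1 and at 26 and 25.8 FPKM in shControl. Like NEAT1, both were highest in shFOXM1 1, which follows largely from choosing them by distance to NEAT1.

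For MALAT1 the nearest by distance were PTGIR (0.05), CYSRT1 (0.09), CSF1 (0.10), CD82 (0.10) and MAOA (0.11). PTGIR, the prostacyclin receptor, was at 12.3 and 17.8 FPKM in shFOXM1 and at 7.45 and 8.83 FPKM in shControl. CSF1, the growth factor of macrophages, was at 19.5 and 29.4 FPKM in shFOXM1 and at 12.1 and 15.2 FPKM in shControl. CD82, a tetraspanin of the cell surface, was at 77.3 and 98.1 FPKM in shFOXM1 and at 47.7 and 54.1 FPKM in shControl, and MAOA, which breaks down amines, was at 49.5 and 63.1 FPKM in shFOXM1 and at 31 and 36 FPKM in shControl. In all of these shFOXM1 2 was the higher shFOXM1 library, as for MALAT1, which follows largely from choosing them by distance to MALAT1. MALAT1 and NEAT1 lay at a distance of 0.61 from each other, place 245 in the order for NEAT1 and place 575 in the order for MALAT1. All these genes share the same 4 libraries, so the distances describe them and carry no test.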

How the data were processed

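RNA was sequenced from 2 shFOXM1 and 2 shControl libraries of Myla cells. The authors deposited FPKM per gene and library, with the gene length in bases, a unit of its own, per the file headers. Neither the aligner nor the counter was named, and strandedness is likewise not given in the sources used here. GRCm38 and mm10, which are mouse builds, stand in the submitters' processing notes, yet all 58735 genes of the table carry the coordinates of human GENCODE 29 (GRCh38), which are used here. Columns named sh0 were taken as shControl and those named sh1 and sh2 as shFOXM1, and 0 columns belonged to other samples. Whole reads were recovered from FPKM and length, with 100% of values whole to 0.001 read. Replicates differed beyond sampling noise, with a chi-square per degree of freedom of 36.5 in shFOXM1 and 3.93 in shControl (genes of 20 or more reads per pair).

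A gene entered the test with 1 FPKM or more in 2 or more libraries, and the test was limma 3.58.1 in R 4.3.3 on log2(FPKM + 1), with empirical Bayes and a trend, two-sided, at an adjusted p of 0.05. Fold changes on this scale understate the change of low genes. With 2 against 2 libraries the smallest exact two-sided permutation p is 0.333, so single values have none. The members and gene lists were chosen with earlier results of these data known. Named list genes are, for each list, up to 4 tested non-members with groups that do not overlap and the largest absolute log2 fold change. Others (AL354733.3, PSPC1-AS2, CPSF4, CPSF6, CPSF7, CSTF1, ELAC2, SMARCA4, SON, SRRM2, SNRNP70, ACIN1, SF3B1, FAM98A, AKAP8L, CIRBP, AHDC1, RELA, MIR4489, TUG1, GAS5, ZFAS1, SNHG25) were named after their values were seen. Some genes that these rules took are not reported here. Alternatives were other pseudocounts (0.1 and 0.01), filters, scalings, variance models, voom on whole reads, a replicate block and each library left out.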

Additional observations from a re-analysis of the deposited data

How the results depend on the processing

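NEAT1 kept its direction under 12 other settings, at 0.86 to 0.93 in log2 fold change, and MALAT1 at 0.74 to 0.82. With each library left out in turn they ran from 0.76 to 1.01 and from 0.53 to 1.01. Over the members and all settings, 109 of 112 values were counted as the same, which is a weak check. NEAT1 and MALAT1 carried no call and were judged by direction and by a shift under their SD between libraries. Leaving out 1 library cannot shift them by more than that SD. The protein genes were judged by direction and call, and under the 12 other settings limma called 0 genes, so no call was gained there. PSPC1 turned to 0.05 without shFOXM1 2, and without shFOXM1 1 PSPC1 (-0.45) and HNRNPK (-0.28) passed the threshold. Of 216 list values 45 moved, mostly when a library was left out. At a mean of at least 5 FPKM the medians of the exosome genes and of the other long noncoding RNAs were 0.01 and -0.01.

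Limma called 0 genes under the 12 other settings. With single libraries left out it called 0 to 1360 higher and 0 to 1744 lower: 1360 and 1744 without shFOXM1 1, 281 and 355 without shFOXM1 2. Whether replicate numbers pair the libraries is not stated, and the deviations of same-numbered libraries had a correlation of 0.0421 over genes (2 pairs). With a replicate block limma called 0 genes and NEAT1 and MALAT1 were at 0.89 and 0.77. A count test in place of limma on FPKM was planned only for a raw count table. It was not run, as the deposited values are FPKM. Of the settings, only voom used the recovered whole reads. Depth limits RNU1-72P and MIR4489. Promoters of NEAT1 and SFPQ were not analysed here.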
